A study of Mus musculus with 12 samples.

Results

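Expression of 10 immediate early genes was followed in mouse ventricles: Fos, Fosb, Jun, Junb, Egr1, Egr3, Atf3, Ier2, Nr4a1 and Myc. They were chosen by name from a table of raw counts per gene that lists 55421 genes, and all 10 were found. All 10 were among the 17376 genes that passed a filter on low counts and were tested. RNA sequencing was done on ventricles of WT mice in 3 groups of 4 libraries. AngII_FI mice received angiotensin II (Ang II) from a subcutaneous osmotic minipump and intraperitoneal Forsythoside I (FI), a plant glycoside, at 50 mg/kg every other day, beginning the day before the pump and ending on day 14. AngII mice received the same pump with vehicle, and saline mice received saline with vehicle. No group received FI without Ang II, and the labels state no strain, sex, age or Ang II dose. Ventricles were taken once, at the endpoint, so the first hours of Ang II were not sampled.

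Immediate early genes are transcribed within minutes of a stimulus from factors already present in the cell, such as SRF with its ETS partners and CREB, and their transcripts are short-lived. Most encode transcription factors: Fos and Jun proteins pair to form AP-1, Egr proteins are zinc finger factors, and Nr4a1 is an orphan nuclear receptor. In the heart they are known for their fast induction by pressure load, stretch, adrenergic drive and Ang II, and also by tissue handling and ischemia.

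The control regions of several of these genes share short letter patterns, and 4 of the windows that hold such a pattern are shown. RefSeq windows (build GRCm38.p6, read 5′ to 3′ on the gene's strand) were used for 6 of the 10 genes. Egr1, Egr3, Ier2 and Myc were not among them. Each window ran from 250 bases before to 50 bases after a RefSeq transcript start. For Atf3 and Nr4a1 that start lies inside the gene span given below, not at its 5′ end. Capitals mark TGACG or its complement CGTCA, the shared core of the cAMP response element, the EGR motif GCGGGGGCG or GCGTGGGCG on either strand, and the TATA box TATAAA on either strand.
Fos (chr12:85473640-85473939, plus strand): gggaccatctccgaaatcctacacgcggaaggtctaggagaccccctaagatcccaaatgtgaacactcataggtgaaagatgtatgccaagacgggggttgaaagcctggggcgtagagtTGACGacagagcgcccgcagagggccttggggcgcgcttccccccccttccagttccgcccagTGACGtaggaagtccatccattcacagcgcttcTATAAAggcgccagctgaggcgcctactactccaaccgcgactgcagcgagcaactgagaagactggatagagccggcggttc
Junb (chr8:84978699-84978998, minus strand): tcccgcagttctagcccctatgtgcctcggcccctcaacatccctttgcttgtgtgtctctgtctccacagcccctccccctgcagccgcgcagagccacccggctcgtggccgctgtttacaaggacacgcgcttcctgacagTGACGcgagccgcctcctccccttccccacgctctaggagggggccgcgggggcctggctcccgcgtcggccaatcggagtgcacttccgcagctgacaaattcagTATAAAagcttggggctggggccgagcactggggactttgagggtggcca
Nr4a1 (chr15:101266596-101266895, plus strand): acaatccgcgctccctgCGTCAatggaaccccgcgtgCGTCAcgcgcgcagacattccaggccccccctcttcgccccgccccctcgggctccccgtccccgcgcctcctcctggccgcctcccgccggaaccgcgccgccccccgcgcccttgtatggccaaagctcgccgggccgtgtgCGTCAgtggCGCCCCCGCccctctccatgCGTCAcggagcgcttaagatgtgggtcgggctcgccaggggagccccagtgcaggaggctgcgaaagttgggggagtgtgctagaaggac
Atf3 (chr1:191183284-191183583, minus strand): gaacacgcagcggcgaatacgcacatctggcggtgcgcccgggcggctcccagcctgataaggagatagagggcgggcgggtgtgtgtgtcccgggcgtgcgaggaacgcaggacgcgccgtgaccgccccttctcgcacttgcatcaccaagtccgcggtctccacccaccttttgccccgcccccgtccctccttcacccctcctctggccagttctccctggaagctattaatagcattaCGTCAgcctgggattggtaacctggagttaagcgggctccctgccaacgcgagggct
TGACG or CGTCA was found in 5 of the 6 windows, those of Fos, Fosb, Junb, Atf3 and Nr4a1, against 20.8% of 32851 RefSeq windows of the same length. Nr4a1 held 4 matches, Fos held 2, and Jun held none. The EGR motif was found in the windows of Fosb and Nr4a1 and in 3.47% of all windows, and the TATA box in those of Fos and Junb and in 13.6% of all windows. The full element TGACGTCA, which contains both short cores, was in none of the 6 windows and in 1.79% of all. The AP-1 site TGAGTCA on either strand, the CArG box of SRF and the NBRE AAAGGTCA of Nr4a1 itself were also in none of the 6, and in 5.2%, 1.63% and 1.51% of all windows. The ETS core CCGGAAG on either strand was in none of the 6 and in 8.86% of all. The SP1 motif GGGCGG on either strand, not put in capitals here, was in 5 of the 6, all but Junb, and in 35.7% of all. The known serum response element of Fos lies upstream of where its window begins. A match of letters is a description and not evidence of binding.

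Total counts ran from 68874852 to 80624227 per library, and mitochondrial genes took 29.1% to 38.8% of them. Levels are given as CPM, counts scaled to the library total, and 3 counts equalled 0.0372 to 0.0436 CPM. The labelled tissue matched its markers, the 10 ventricular cardiomyocyte markers summing to 31727 to 43876 CPM. The third AngII_FI library stood apart: its 10 hepatocyte markers summed to 21645 CPM, against 35.4 CPM in the third AngII library and 1.17 to 6.21 CPM in the other 10. Fold changes of the 10 genes in comparisons with AngII_FI are therefore given with and without AngII_FI replicate 3. Values of other genes and of gene lists use all 12 libraries unless stated. Nothing in the labels ties each library to an animal of its own, so p-values measure the spread between these libraries. Values of 4 libraries are listed from replicate 1 to replicate 4. Gene positions are those of GENCODE M21 (GRCm38).

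Per length of exon, the genes spanned a wide range of levels in the 11 libraries without AngII_FI replicate 3. Jun was highest at 15.7 ± 3.29 RPKM (CPM per kilobase of exon, mean ± SD, n = 11), followed by Ier2 at 10.9 ± 2.56. Nr4a1 at 8.90 ± 4.88, Egr1 at 8.37 ± 4.39 and Junb at 7.78 ± 1.84 RPKM came next and differed by less than their own spread. Atf3 had 4.78 ± 1.68 and Fos 2.87 ± 1.47 RPKM. Myc at 0.851 ± 0.280, Egr3 at 0.562 ± 0.239 and Fosb at 0.168 ± 0.0761 RPKM were lowest. The smallest count behind any value was 28, for Fosb in AngII_FI replicate 1, or 0.401 CPM with an exact Poisson 95% interval of 0.267 to 0.580 that covers counting error only.

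**Figure D1:**
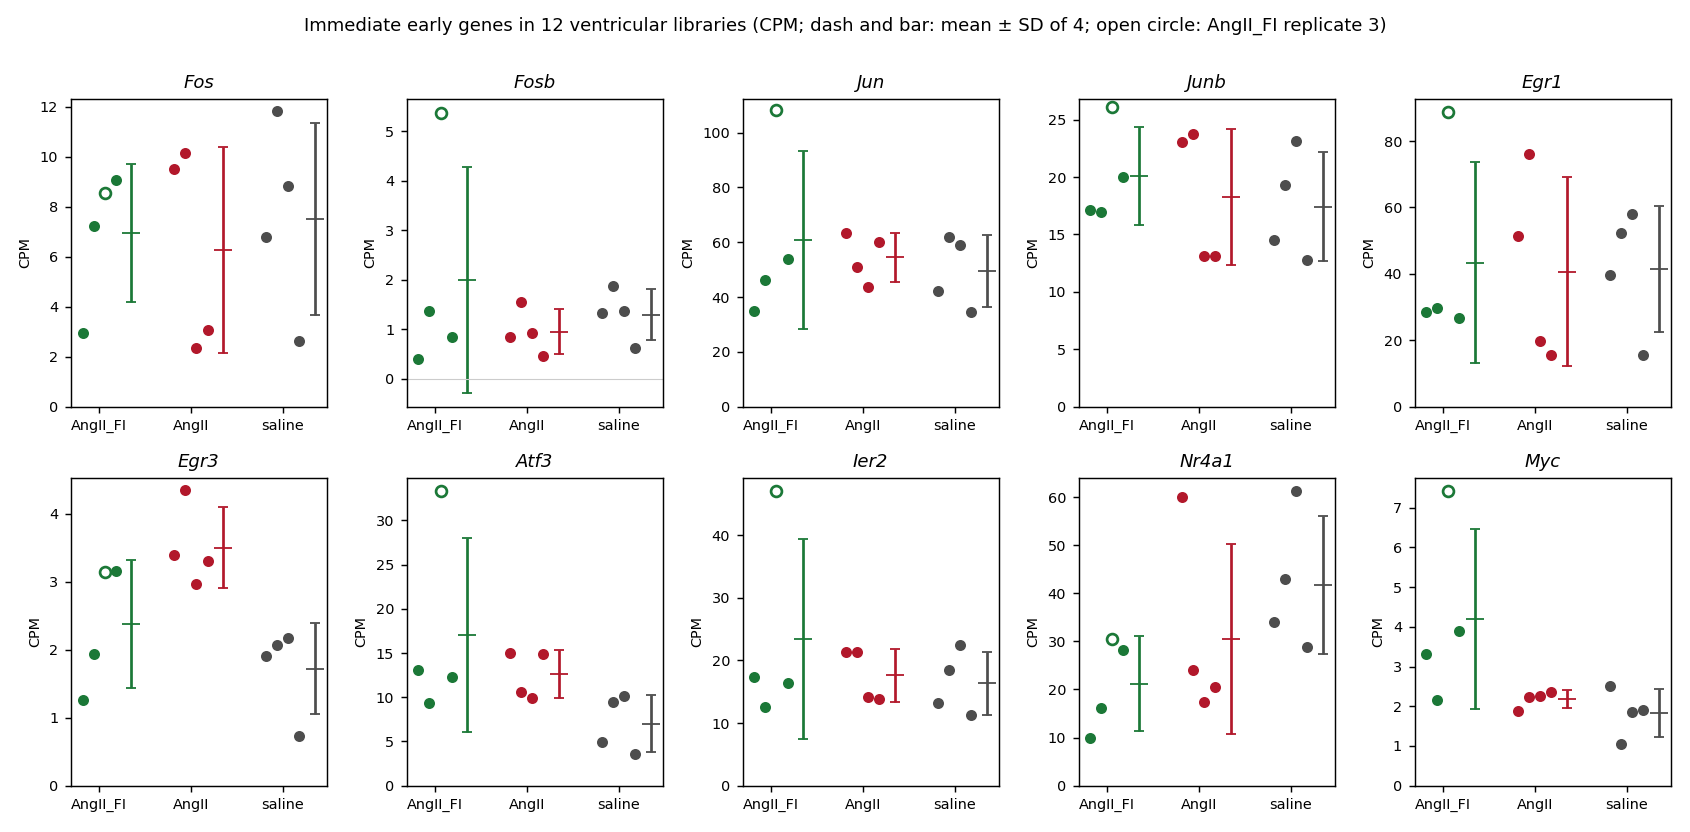
CPM (y axis) of each of the 10 immediate early genes by group (x axis: AngII_FI, AngII, saline), with 1 point per library, the group mean and its SD; AngII_FI replicate 3 is drawn as an open symbol. The groups overlap for every gene except Egr3, whose AngII libraries (2.96 to 4.34 CPM) all lie above its saline libraries (0.736 to 2.18 CPM).

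The Fos family members, which supply the partner that Jun proteins need for strong AP-1 binding, showed broad overlap of the groups. Fos (chromosome 12, 85473890 to 85477273, plus strand) had 2.94, 7.24, 8.55 and 9.05 CPM in AngII_FI libraries, 9.51, 10.1, 2.34 and 3.06 CPM in AngII libraries and 6.77, 11.8, 8.82 and 2.63 CPM in saline libraries. Each group held both low and high libraries, and no group stood apart. Fosb (chromosome 7, 19302696 to 19310051, minus strand) had 0.401, 1.37, 5.37 and 0.844 CPM in AngII_FI libraries, 0.834, 1.55, 0.931 and 0.459 CPM in AngII libraries and 1.32, 1.87, 1.36 and 0.622 CPM in saline libraries. Its value in AngII_FI replicate 3 was the highest of the 12, and without that library the 3 groups covered much the same range.

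The Jun proteins and Atf3, a stress-induced factor of the same leucine zipper class that can pair with them, were the more abundant AP-1 members per exon length. Jun (chromosome 4, 95049034 to 95052222, minus strand) had 35.1, 46.1, 108 and 54.0 CPM in AngII_FI libraries, 63.5, 50.8, 43.5 and 60.0 CPM in AngII libraries and 42.1, 61.9, 59.0 and 34.6 CPM in saline libraries. Junb (chromosome 8, 84974484 to 84978718, minus strand) had 17.1, 17.0, 26.1 and 20.0 CPM in AngII_FI libraries, 23.0, 23.7, 13.2 and 13.1 CPM in AngII libraries and 14.5, 19.3, 23.2 and 12.7 CPM in saline libraries. Apart from AngII_FI replicate 3, the groups of both genes overlapped almost fully. Atf3 (chromosome 1, 191170296 to 191218039, minus strand) had 13.1, 9.40, 33.3 and 12.3 CPM in AngII_FI libraries, 15.0, 10.6, 9.92 and 14.9 CPM in AngII libraries and 4.89, 9.47, 10.2 and 3.59 CPM in saline libraries. Its saline group held 2 libraries below every library of the other groups, 1 at 9.47 CPM inside the AngII_FI range but below every AngII library, and 1 at 10.2 CPM inside both ranges. The exons of Junb share 173 bases, 7.52% of their length, with Prdx2 on the opposite strand (218 CPM), and those of Jun share 232 bases, 7.28%, with the antisense gene Junos (0.283 CPM). Whether the counting used strand is not stated, so reads in these stretches cannot be assigned to either gene.

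The Egr genes differed from each other. Egr1 (chromosome 18, 34859823 to 34864984, plus strand), which activates growth and matrix genes, had 28.4, 29.6, 88.8 and 26.6 CPM in AngII_FI libraries, 51.4, 76.1, 19.7 and 15.5 CPM in AngII libraries and 39.8, 52.2, 58.2 and 15.6 CPM in saline libraries. AngII libraries fell into a high pair and a low pair, and saline libraries spanned the gap. Egr3 (chromosome 14, 70077203 to 70082614, plus strand), a relative of Egr1 that binds the same motif, had 1.26, 1.94, 3.14 and 3.16 CPM in AngII_FI libraries, 3.39, 4.34, 2.96 and 3.30 CPM in AngII libraries and 1.90, 2.08, 2.18 and 0.736 CPM in saline libraries. All 4 AngII libraries lay above all 4 saline libraries, and AngII_FI libraries overlapped both.

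The remaining 3 genes had different patterns. Ier2 (chromosome 8, 84661331 to 84662852, minus strand), a small nuclear protein, had 17.4, 12.6, 47.1 and 16.4 CPM in AngII_FI libraries, 21.3, 21.3, 14.1 and 13.9 CPM in AngII libraries and 13.2, 18.4, 22.4 and 11.3 CPM in saline libraries. Outside AngII_FI replicate 3 its values stayed between 11.3 and 22.4 CPM. Nr4a1 (chromosome 15, 101254269 to 101274795, plus strand) had 9.95, 16.1, 30.6 and 28.2 CPM in AngII_FI libraries, 60.0, 24.1, 17.4 and 20.6 CPM in AngII libraries and 34.0, 43.0, 61.4 and 28.7 CPM in saline libraries. In each Ang II group 3 libraries lay below every saline library, with AngII_FI replicate 3 and AngII replicate 1 as the exceptions. Myc (chromosome 15, 61985391 to 61990374, plus strand), which drives ribosome production and cell growth, had 3.31, 2.15, 7.43 and 3.91 CPM in AngII_FI libraries, 1.87, 2.22, 2.27 and 2.37 CPM in AngII libraries and 2.52, 1.05, 1.85 and 1.91 CPM in saline libraries. AngII libraries lay close together, and 3 of the 4 AngII_FI libraries were above every library of the other groups.

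The comparison of AngII with saline asks whether these genes stood at another level after the Ang II infusion. None of the 10 was called, that is, had an adjusted p (Benjamini-Hochberg) under 0.05 in the quasi-likelihood test of edgeR, while 2.23% of the 17376 tested genes were, 1.57% higher and 0.662% lower. In the fit without AngII_FI replicate 3 the counts were 0 of 10, against 3.86% of all genes. An unadjusted p under 0.05 was reached by 1 of the 10 genes, Egr3, and by 16.8% of all genes, and neither DESeq2 nor limma-voom called any of the 10. The 10 log2 fold changes had a median of 0.06, with 6 above and 4 below 0, against a median of 0.00 over all genes. Egr3 was 2.00-fold higher in AngII than in saline ventricles (95% interval 1.19 to 3.37), a log2 fold change of 1.00 ± 0.35 (SE) with an edgeR adjusted p of 0.158. It was the 1 gene of the 10 whose groups did not overlap, and 7.74% of all tested genes had all AngII libraries above all saline libraries. Atf3 followed with a log2 fold change of 0.83 ± 0.39 (edgeR adjusted p = 0.306), and 0.83 ± 0.28 (adjusted p = 0.124) in the fit without AngII_FI replicate 3. Nr4a1 had -0.49 ± 0.40, Fosb -0.48 ± 0.66, Fos -0.31 ± 0.53 and Egr1 -0.06 ± 0.54. Junb had 0.04 ± 0.22, Ier2 0.09 ± 0.35, Jun 0.12 ± 0.28 and Myc 0.23 ± 0.34. The intervals left room for sizeable changes: that of Fos ran from 0.365-fold to 1.79-fold, and that of Junb, the narrowest, from 0.737-fold to 1.44-fold.

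**Figure D2:**
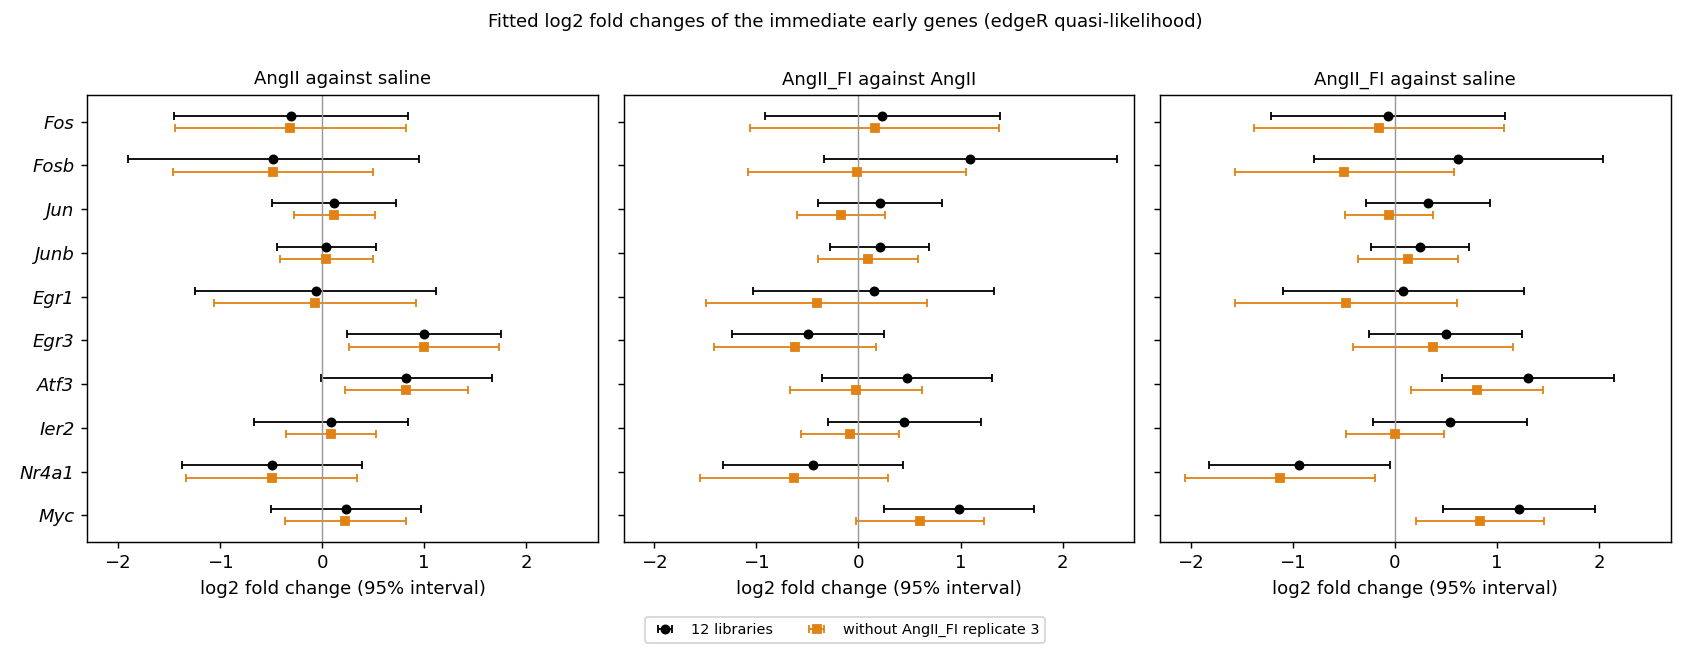
Fitted log2 fold changes (x axis) of the 10 genes (y axis) with 95% intervals in the 3 comparisons, 1 per panel, with all 12 libraries (black circles) and without AngII_FI replicate 3 (orange squares). With AngII_FI replicate 3 left out, the AngII_FI estimates of Fosb, Jun, Egr1, Atf3, Ier2 and Myc move to the left. The AngII against saline estimates stay near their places.

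The comparison of AngII_FI with AngII asks whether FI moved these genes under continued Ang II. None of the 10 was called by edgeR, and 0% of all tested genes were in either direction. The counts without AngII_FI replicate 3 were 0 of 10, against 0.00565% of all genes. An unadjusted p under 0.05 was reached by 1 of the 10, Myc, and by 9.95% of all genes. DESeq2 called 11 genes higher and 34 lower in the whole table and none of the 10, and limma-voom called none of the 10. Myc was 1.98-fold higher in AngII_FI than in AngII ventricles (95% interval 1.19 to 3.29), a log2 fold change of 0.98 ± 0.34 with an edgeR adjusted p of 0.411. Leaving out AngII_FI replicate 3 gave 0.61 ± 0.29 (edgeR adjusted p = 0.639). Fosb had 1.10 ± 0.66 with all libraries and -0.01 ± 0.49 without that library. With all 12 libraries 8 of the 10 estimates were above 0, with a median of 0.22, and without AngII_FI replicate 3 there were 3 above 0, with a median of -0.05; the medians over all genes were 0.02 and 0.00. Jun (0.21 ± 0.28), Egr1 (0.15 ± 0.54), Atf3 (0.48 ± 0.38) and Ier2 (0.45 ± 0.35) had estimates of the opposite sign without it, at -0.17 ± 0.20, -0.41 ± 0.50, -0.02 ± 0.30 and -0.08 ± 0.22. Fos (0.24 ± 0.53) and Junb (0.21 ± 0.22) stayed above 0 at 0.16 ± 0.56 and 0.09 ± 0.23. Egr3 and Nr4a1 were below 0 both ways, at -0.50 ± 0.34 and -0.45 ± 0.40 with all libraries, and at -0.62 ± 0.36 and -0.63 ± 0.42 without AngII_FI replicate 3. All of these intervals included 0 except that of Myc with all libraries.

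The comparison of AngII_FI with saline sets the treated Ang II hearts against hearts without Ang II, and shares its saline libraries with the first comparison. None of the 10 genes was called by edgeR, against 0.978% of all tested genes, 0.719% higher and 0.259% lower, and none was called without AngII_FI replicate 3, against 1.24%. An unadjusted p under 0.05 was reached by 3 of the 10, Myc, Atf3 and Nr4a1, and by 17.3% of all genes. Atf3 was 2.47-fold higher in AngII_FI than in saline ventricles (95% interval 1.37 to 4.43), a log2 fold change of 1.30 ± 0.39 with an edgeR adjusted p of 0.118. Myc was 2.32-fold higher (95% interval 1.39 to 3.88), a log2 fold change of 1.21 ± 0.34 with an edgeR adjusted p of 0.105. DESeq2 called both, with adjusted p-values of 0.0115 for Atf3 and 0.0168 for Myc, and limma-voom called neither. Of all genes that DESeq2 gave an adjusted p, 3.12% were called higher. DESeq2 and limma-voom were run on all 12 libraries only, so these calls were not repeated without AngII_FI replicate 3. Without AngII_FI replicate 3, edgeR gave Atf3 0.81 ± 0.30 (adjusted p = 0.207) and Myc 0.84 ± 0.29 (adjusted p = 0.178). Nr4a1 had a log2 fold change of -0.94 ± 0.41 (edgeR adjusted p = 0.264), and -1.12 ± 0.43 (adjusted p = 0.225) without AngII_FI replicate 3. With that library left out, the 3 AngII_FI libraries (9.95 to 28.2 CPM) lay below the 4 saline libraries (28.7 to 61.4 CPM), as the like groups did for 11% of all genes. The other 7 genes had estimates of -0.07 to 0.62 with all libraries and of -0.49 to 0.37 without AngII_FI replicate 3.

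The library with the hepatocyte transcripts, AngII_FI replicate 3, also had high values of these genes. In that library all 10 genes lay above their group mean, by 0.39 (Fos) to 1.62 (Fosb) on the log2(CPM + 0.5) scale, and its hepatocyte marker sum was 21645 CPM against 1.25 to 4.64 CPM in the other AngII_FI libraries. Its ventricular cardiomyocyte markers summed to 34022 CPM, inside the range of 32666 to 40299 CPM of the other 3. The part of the liver transcripts in these values was not tested.

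Between libraries of 1 group, these genes varied more than most. The within-group SD of log2(CPM + 0.5), over the 11 libraries without AngII_FI replicate 3, was 0.89 for Fos, 0.84 for Egr1 and 0.67 for Nr4a1. These exceeded the SD of 98.8%, 98.6% and 97.4% of the 13032 genes that averaged 1 CPM or more, whose median SD was 0.19. The steadiest were Myc at 0.32 and Jun at 0.32, which still exceeded 83.7% and 84.6% of those genes. Without AngII_FI replicate 3, the widest ratio inside a group was that of Egr1 among AngII libraries, 4.92 between 15.5 and 76.1 CPM.

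The libraries that were high or low for one gene tended to be so for the others. In the AngII_FI group replicate 3, above the group mean for all 10 genes, set that mean: replicate 1 lay below it for all 10 (median deviation -0.52) and replicate 2 for 9. Among the other 3 AngII_FI libraries alone, replicates 1 and 2 each had 6 genes below and 4 above their mean, with median deviations of -0.20 and -0.04, and replicate 4 had 9 above, with 0.22. AngII replicates 1 and 2 had 7 of the 10 above the group mean, with median deviations of 0.28 and 0.29, while AngII replicates 3 and 4 had 8 and 7 below, with median deviations of -0.31 and -0.34. Saline replicates 2 and 3 had 9 and 10 above, and saline replicate 4 had 9 below with a median deviation of -0.55. Summed endothelial markers (7 genes) were 910, 827, 664 and 664 CPM in the AngII libraries and 669, 717, 768 and 472 CPM in the saline libraries, the same order as the median deviations in saline and the same split into pairs in AngII. In the AngII_FI libraries they were 624, 527, 517 and 546 CPM, and without replicate 3 their order was not that of the median deviations. The AngII split was shared by fibroblast markers (1191, 1185, 1037 and 1116 CPM) and by smooth muscle and pericyte markers (1105, 1042, 969 and 1034 CPM). Macrophage markers did not share it (267, 253, 254 and 275 CPM). In saline libraries the fibroblast sums were 761, 924, 876 and 719 CPM, and those of smooth muscle and pericytes 929, 977, 942 and 775 CPM. In ventricle tissue, fewer cells of a type and less RNA per cell cannot be told apart. The part of cell content in these deviations was not tested. The 10 heat shock genes summed to 1230 to 1975 CPM, and neutrophil markers (6 genes) to 1.91 to 5.22 CPM with up to 2 of the 6 at 0.

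**Figure D3:**
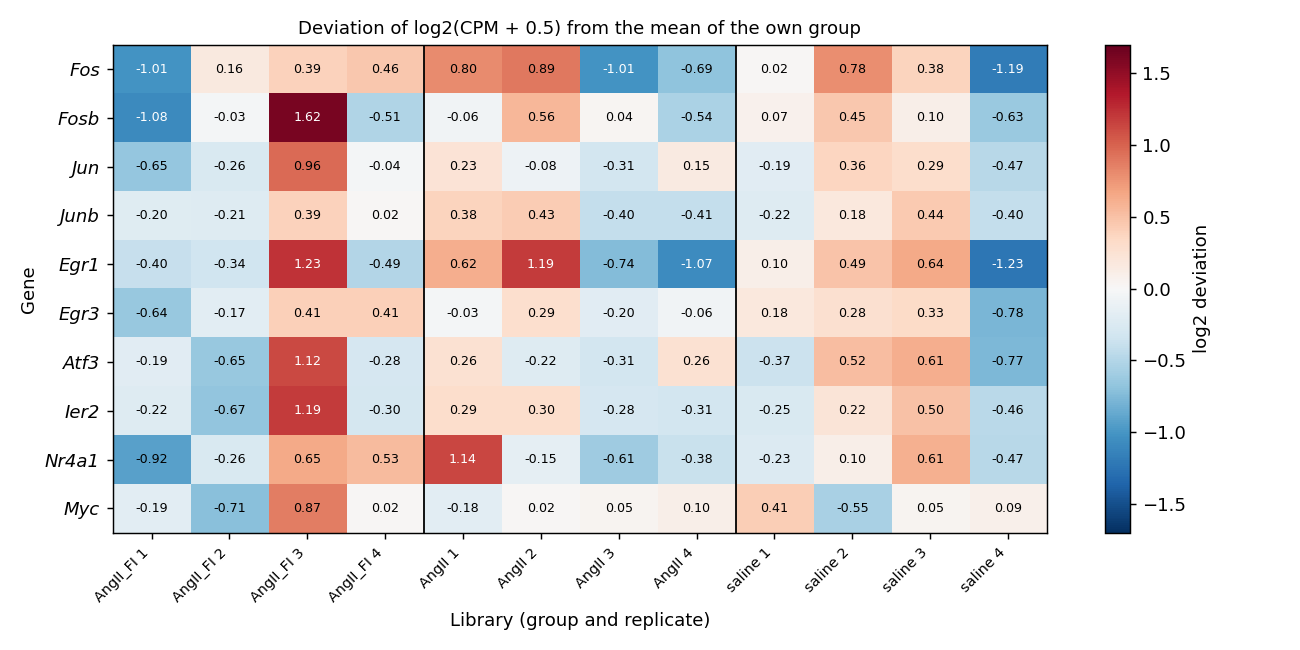
Deviation of each gene (rows) from its group mean on the log2(CPM + 0.5) scale (colour) in each of the 12 libraries (columns: AngII_FI, AngII, saline). AngII_FI replicate 3 and saline replicate 3 are above the group mean for all 10 genes, AngII_FI replicate 1 is below a mean that includes replicate 3 for all 10, and Myc is the row that most often departs from its column.

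Pairs of genes were compared by the correlation of these deviations over libraries, with exact two-sided permutation of libraries within groups and Benjamini-Hochberg adjustment over 45 pairs. With all 12 libraries 19 pairs had an adjusted p under 0.05, all with positive r, and 11 pairs passed by Spearman's rho. Junb and Egr1 had the highest r at 0.92 (rho 0.88, adjusted exact permutation p = 0.0152 for r), and Junb and Ier2 had r 0.82 (rho 0.83, adjusted exact permutation p = 0.0146). Without the 2 libraries farthest from the median of Junb, r was 0.90 and 0.81. Fos and Egr3 had r 0.81 (rho 0.73, adjusted exact permutation p = 0.00977), and r 0.73 without the 2 libraries farthest from the median of Fos. Without AngII_FI replicate 3, 6 pairs passed by Spearman's rho, Junb and Ier2 among them (rho 0.95, adjusted exact permutation p = 0.0469). By Pearson's r, Fos and Egr3 was the 1 pair left past the threshold (r 0.81, rho 0.79, adjusted exact permutation p = 0.0260), although Junb and Egr1 kept r 0.91 and Junb and Ier2 had r 0.93 (both adjusted exact permutation p = 0.0671). The 36 pairs that do not involve Myc all had r above 0, with a median of 0.67 over 12 libraries and 0.62 over 11. Of the 9 pairs with Myc, 8 had r above 0 over 12 libraries and 0 had over 11, where r ran from -0.47 to -0.000183. None of the pairs with Myc passed the threshold in either set. Values of 2 genes in 1 library share its depth, dissection and handling.

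**Figure D4:**
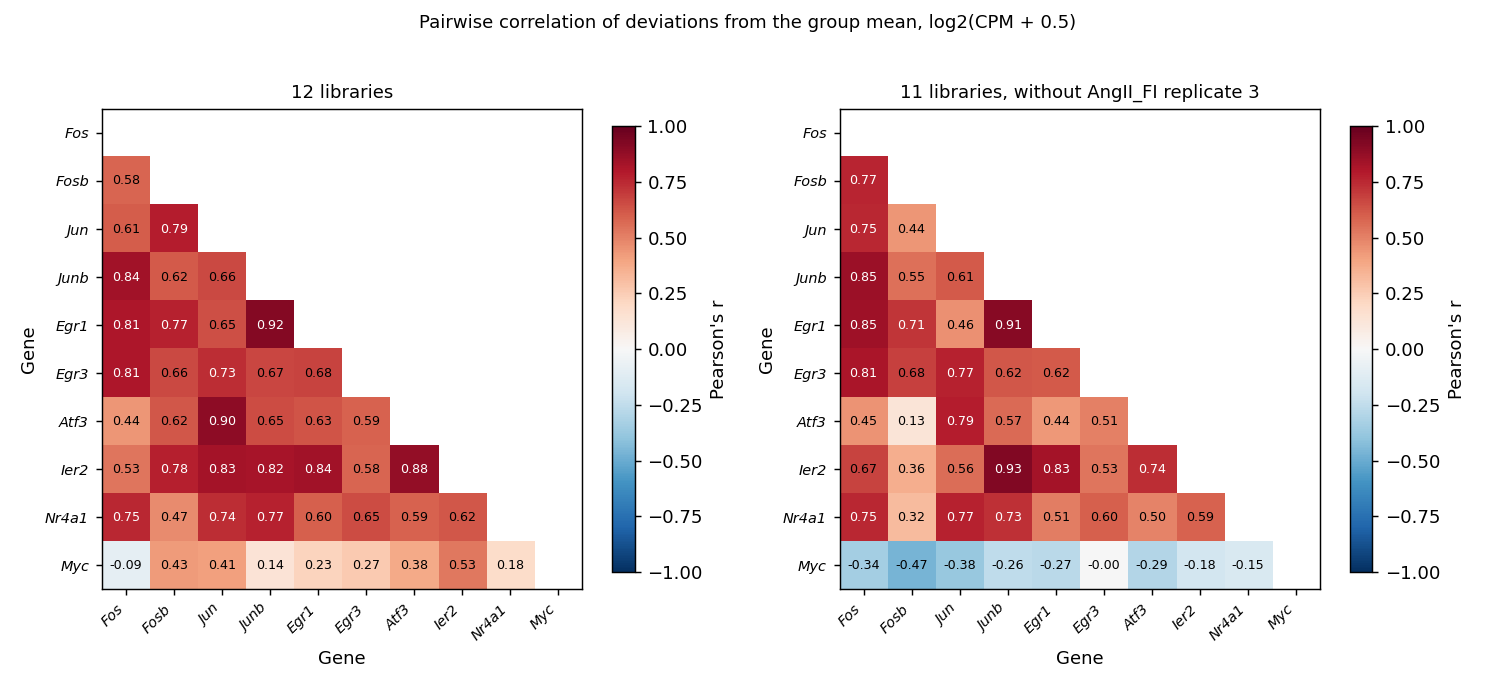
Pearson r of the log2(CPM + 0.5) deviations from the group mean for each pair of genes (rows and columns), over all 12 libraries and over the 11 without AngII_FI replicate 3. Colour gives r; every pair without Myc is above 0 in both panels, and the Myc row turns below 0 in the panel of 11 libraries.

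Other genes were ranked by their r with the mean z-score of the 10 genes over the 11 libraries, among 13172 genes that averaged 1 CPM or more. Among the 10 most alike were Emilin1 (r 0.97), Klf16 (0.96), Faap20 (0.95), Kdm3a (0.93), Sp110 (0.92), Tnfrsf1b (0.92), Cep162 (0.92), Snhg18 (0.92) and E2f3 (0.91). Emilin1 is an elastic fibre glycoprotein, Kdm3a a histone demethylase and Tnfrsf1b a receptor for tumour necrosis factor. With AngII_FI replicate 3 included, Klf16, Tnfrsf1b, Kdm3a and E2f3 kept an r of 0.91 to 0.98, while Emilin1 had 0.58 and Snhg18 0.02. Of the 10 genes themselves, Fos (0.92), Junb (0.91) and Egr3 (0.86) lay nearest to the mean and Myc (-0.19) farthest from it over 11 libraries. Each of the 10 is part of that mean, which raises its own r. These r values come from a ranking of many genes over few libraries and are a description.

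In the wider family of immediate early genes, edgeR called 2 of the tested members higher with Ang II. Of 41 tested genes in a list of other immediate early genes, Ier5 and Hbegf rose and 0 fell in AngII against saline by edgeR, where 1.57% of all tested genes rose and 0.662% fell, with a median log2 fold change of 0.20 against 0.00 over all genes. Ier5 (chromosome 1, 155096361 to 155099636, minus strand), a growth and stress response factor related to Ier2, had 40.5, 42.3, 44.1 and 46.2 CPM in AngII_FI libraries, 24.3, 35.8, 32.9 and 43.0 CPM in AngII libraries and 12.8, 18.8, 22.1 and 17.0 CPM in saline libraries. All AngII libraries lay above all saline libraries, as was so for 7.74% of all tested genes. Its log2 fold change was 0.94 ± 0.18 in AngII against saline (edgeR adjusted p = 0.0220) and 1.35 ± 0.18 in AngII_FI against saline (edgeR adjusted p = 0.00613). The AngII_FI call held without each library in turn, with log2 fold changes of 1.24 to 1.45. The AngII call was lost without AngII replicate 2, 3 or 4 or saline replicate 1, 2 or 4, with log2 fold changes of 0.80 to 0.97 and adjusted p-values up to 0.0726.

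Hbegf (chromosome 18, 36504927 to 36515805, minus strand), a membrane-bound ligand of the EGF receptor, had 16.8, 14.6, 14.8 and 17.1 CPM in AngII_FI libraries, 14.6, 13.5, 14.3 and 16.4 CPM in AngII libraries and 11.1, 9.25, 9.42 and 10.5 CPM in saline libraries. Here too all AngII libraries lay above all saline libraries, which 7.74% of all tested genes shared. It rose by 0.53 ± 0.12 on the log2 scale in AngII against saline (edgeR adjusted p = 0.0381) and by 0.70 ± 0.12 in AngII_FI against saline (edgeR adjusted p = 0.0201). The AngII call was lost in 9 of the 12 fits that left out a library, with adjusted p-values up to 0.118, and also with the replicate block (edgeR adjusted p = 0.0571), with upper quartile scaling (0.0683) and with no filter on low counts (0.0802). The AngII_FI call was lost in 5, those without AngII_FI replicate 1 or 4 or saline replicate 2, 3 or 4, with adjusted p-values up to 0.0722, and in the fit of the 2 groups alone (0.0703). Some cell type markers were called by edgeR in the same contrasts, where 1.57% of all tested genes were called higher in AngII against saline. Of 7 fibroblast markers, 4 rose in AngII against saline, and their sums were 881 to 980 CPM in AngII_FI, 1037 to 1191 CPM in AngII and 719 to 924 CPM in saline libraries. Of 7 macrophage markers, 4 rose in AngII against saline, and their sums were 220 to 256, 253 to 275 and 150 to 191 CPM in AngII_FI, AngII and saline libraries. Of 6 skeletal muscle markers, up to 4 were at 0 in a library, 3 were tested and 1 rose in AngII against saline. These 6 summed to 616 to 860, 553 to 836 and 118 to 325 CPM in the same order of groups. With 1 marker called, these sums do not measure skeletal muscle content. Of 5 atrial cardiomyocyte markers, 2 were tested and 1 rose in AngII against saline. Their sums were 330 to 423, 277 to 348 and 97.0 to 128 CPM in AngII_FI, AngII and saline libraries. By exact permutation of mean marker levels in AngII against saline, none of these lists passed after adjustment. The adjusted exact permutation p was 0.0935 for fibroblast, macrophage and skeletal muscle lists and 0.286 for the atrial list. The part of these cell types in the levels of Ier5 and Hbegf was not tested. In AngII_FI against saline the 41 genes had 2 higher and 0 lower by edgeR, against 0.719% and 0.259% of all tested genes. Their median was 0.16 with all libraries and -0.04 without AngII_FI replicate 3. DESeq2 called 2 higher and 2 lower there, beside 3.12% and 2.36% of the genes it gave an adjusted p. In AngII against saline DESeq2 called 3 higher, Egr2 among them, and 0 lower, beside 4.63% and 2.9%. In AngII_FI against AngII none was called, and the 2 with the smallest p were Egr2, at -0.99 ± 0.35, and Klf6, at -0.30 ± 0.11. Egr2, a close relative of Egr3, averaged 1.06 ± 0.337 CPM in AngII_FI libraries, 2.22 ± 0.806 CPM in AngII libraries and 0.999 ± 0.348 CPM in saline libraries (SD, n = 4).

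Among 13 tested AP-1 relatives and partners, edgeR called 1 higher and 0 lower in AngII_FI against saline, beside 0.719% and 0.259% of all tested genes, and none in the other comparisons. DESeq2 called 4 higher and 0 lower there, beside 3.12% and 2.36% of the genes it gave an adjusted p, and 3 higher and 1 lower in AngII against saline, beside 4.63% and 2.9%. The edgeR call was Ddit3, the stress factor CHOP, with 17.1, 18.9, 17.5 and 16.8 CPM in AngII_FI libraries, 12.7, 18.6, 16.0 and 14.5 CPM in AngII libraries and 9.65, 11.6, 11.2 and 11.3 CPM in saline libraries. All 4 saline libraries lay below all AngII libraries, as was so for 7.74% of all tested genes. Its log2 fold change in AngII_FI against saline was 0.73 ± 0.12 (edgeR adjusted p = 0.0209), and the call was lost without AngII_FI replicate 1 or 4 or any 1 of the saline libraries, with adjusted p-values up to 0.0668. The list median was 0.32 in AngII against saline, 0.09 in AngII_FI against AngII and 0.37 in AngII_FI against saline. Without AngII_FI replicate 3 the last 2 medians were 0.07 and 0.31. A second model of the same symbol shares 105 bases, 6.13% of the exon length, with it. In AngII_FI against AngII the smallest p of the list belonged to Fosl2, a Fos relative, with -0.55 ± 0.19 (edgeR adjusted p = 0.423). Without AngII_FI replicate 3 Fosl2 had -0.50 ± 0.21 (edgeR adjusted p = 0.592).

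Among genes that restrain or receive the signal, the main edgeR fit of all 12 libraries and limma-voom called none in any comparison. This held for 16 MAP kinase phosphatases, Sprouty proteins and EGR repressors, for 27 upstream factors and kinases, for 11 partners of MYC, for 18 MYC target genes and for 10 heat shock genes, 82 tested genes in all. DESeq2 called 4 of them higher and 2 lower in AngII against saline, beside 4.63% and 2.9% of all genes it gave an adjusted p. It called 0 and 1 in AngII_FI against AngII, beside 0.0613% and 0.19%, and 4 and 2 in AngII_FI against saline, beside 3.12% and 2.36%. Hsp90aa1, a cytosolic chaperone, was called higher in AngII against saline by DESeq2 and by edgeR with the replicate block. Spry1, a feedback inhibitor of receptor tyrosine kinase signalling, had 28.1, 25.02, 27.4 and 25.6 CPM in AngII_FI libraries and 40.2, 36.1, 31.4 and 37.6 CPM in AngII libraries. The 2 groups did not overlap, as all AngII_FI libraries lay below all AngII libraries for 5.12% of tested genes. Its log2 fold change in AngII_FI against AngII was -0.38 ± 0.08 (edgeR adjusted p = 0.411), and it was the 1 gene of these that DESeq2 called lower there. Spry4 had -0.57 ± 0.18 (edgeR adjusted p = 0.411). Mrtfa, a coactivator of SRF, had -0.50 ± 0.12 and Crem, a relative of CREB, -0.41 ± 0.13 in the same comparison (edgeR adjusted p = 0.411 for both). Without AngII_FI replicate 3 Spry1 had -0.37 ± 0.09, Spry4 -0.56 ± 0.19, Mrtfa -0.55 ± 0.13 and Crem -0.46 ± 0.14 (edgeR adjusted p = 0.542 for each). Map2k7, a kinase that activates JNK, had -0.81 ± 0.21 in AngII against saline (edgeR adjusted p = 0.0649), and was called at an adjusted p of 0.0485 without AngII_FI replicate 3. The exons of Map2k7 share 1349 bases, 35.2% of their length, with Gm49320 on the same strand (0.421 CPM). Those of Spry1 share 710 bases, 24.4%, with Gm42922 on the opposite strand (0.297 CPM). The 18 MYC target genes had medians of 0.05 in AngII against saline, -0.01 in AngII_FI against AngII and 0.07 in AngII_FI against saline, near the medians of all genes.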

How the data were processed

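Ventricle RNA of WT mice was sequenced in 12 libraries, grouped by their treatment labels into AngII_FI, AngII and saline with 4 each. The authors deposited raw counts per gene. The submitters' processing notes name HISAT, featureCounts (1.5.0-p3), DESeq (1.8.3) and build GRCm38; whether counting used strand, how reads with several matches were treated and which annotation served are not stated there. The labels' protocols name TRIzol in one field and an RNeasy kit in another. Total counts were 68874852 to 80624227 per library, so 3 counts equal 0.0372 to 0.0436 CPM, and counting intervals cover counting error only.

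Low genes were removed with filterByExpr, libraries were scaled by TMM, and 17376 genes were tested by quasi-likelihood in edgeR 4.0.16 (R 4.3.3). A single fit held 12 libraries, 3 group means and no covariates. P-values were Benjamini-Hochberg adjusted over all of these genes, with a threshold of 0.05. SE is the absolute log2 fold change divided by the square root of F. RPKM uses GENCODE M21 exon lengths (99.5% of IDs matched). Correlations and marker levels use log2(CPM + 0.5) and exact permutation in Python 3.11; for 4 against 4 the smallest p is 0.0286. The procedure was tested on simulated data first. Alternatives were DESeq2 1.42.0, limma-voom (limma 3.58.1), other scalings, filters and designs, and leaving out each library; 2 more, for the genes most like the mean, were chosen after seeing the data. The 10 genes, the gene lists and the tests were chosen with earlier results of these data known. The genes named are the 10, the called genes of each list (at most 4 per direction) or else the 2 with the smallest p, and the 10 genes most like the mean, of which 1 is not reported here; some that the rule takes enter a list count only.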

Additional observations from a re-analysis of the deposited data

Results flagged for a closer look

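A library far from the others of its group was looked for in 30 groups of 4 values, the 10 genes in 3 groups, by Dixon's ratio at its 95% critical value, which chance alone passes in about 1 of 20 groups. Of these 30 groups, 4 passed. In AngII_FI replicate 3, Egr1 stood at 88.8 CPM, against 26.6 to 29.6 CPM in the other AngII_FI libraries. Atf3 stood at 33.3 CPM there, against 9.40 to 13.1 CPM, and Ier2 at 47.1 CPM, against 12.6 to 17.4 CPM. This is the library with 21645 CPM of hepatocyte markers, whose part in these values was not tested. The other value was that of Nr4a1 in AngII replicate 1, 60.0 CPM against 17.4 to 24.1 CPM in the other AngII libraries, where hepatocyte markers summed to 1.17 CPM. Without that library the log2 fold change of Nr4a1 was -1.001 in AngII against saline, in place of -0.49, and 0.07 in AngII_FI against AngII, in place of -0.45.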

How the results depend on the processing

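The count of 0 called genes among the 10 was the same in every edgeR fit and in limma-voom, and DESeq2 raised it to 2 in AngII_FI against saline (Atf3 and Myc). Counts over all genes moved more. For AngII against saline, 273 genes were higher and 115 lower; DESeq2 gave 687 and 430, no filter on low counts 152 and 38, and leaving out each library 79 to 441 and 11 to 242. Library totals without TMM gave 57 lower and a fit of the 2 groups alone 208 lower. For AngII_FI against AngII, DESeq2 gave 11 and 34 in place of 0 and 0, and leaving out each library 0 to 1 in both directions. For AngII_FI against saline, 125 were higher and 45 lower; DESeq2 gave 479 and 362, no filter 50 and 14, the 2 groups alone 35 and 13, upper quartile scaling 73 higher, and leaving out each library 35 to 165 and 5 to 60. Replicate numbers do not pair the samples: same-numbered libraries correlated at r -0.12 to 0.13 over 12 pairs, and 3 passed 0.1. A fit with the replicate number as a block gave 105 higher and 19 lower for AngII against saline and 51 and 10 for AngII_FI against saline, and none of the 10 genes. Without AngII_FI replicate 3, the only library left out there, the correlated pairs fell to 1 by Pearson's r, in place of 19, and to 6 by Spearman's rho, in place of 11. The cause of these shifts was not tested.

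Several log2 fold changes changed sign when 1 library was left out. In AngII against saline the ranges were -0.021 to 0.25 for Jun, -0.11 to 0.19 for Junb, -0.56 to 0.20 for Egr1 and -0.055 to 0.26 for Ier2. In AngII_FI against AngII they were -0.025 to 0.58 for Fos, -0.014 to 1.43 for Fosb, -0.17 to 0.39 for Jun, -0.41 to 0.65 for Egr1, -0.019 to 0.67 for Atf3, -0.084 to 0.65 for Ier2 and -0.64 to 0.065 for Nr4a1. In AngII_FI against saline they were -0.35 to 0.24 for Fos, -0.49 to 0.96 for Fosb, -0.054 to 0.51 for Jun and -0.48 to 0.27 for Egr1, and Fos was at 0.023 by limma-voom and 0.12 with the replicate block. Egr3 in AngII against saline stayed at 0.74 to 1.11 and Myc in AngII_FI against saline at 0.84 to 1.44. Mean marker differences without AngII_FI replicate 3 turned to 0.0216 (ventricular cardiomyocyte, AngII_FI against saline), -0.386 (hepatocyte, AngII_FI against AngII), -0.00631 (adipocyte, AngII_FI against saline) and 0.00150 (skeletal muscle, AngII_FI against AngII).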
